A study of Mus musculus with 8 samples.

Results

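The sarcomere is held together by 2 protein lattices, the Z-disc at its ends and the M-band at its centre, and by linkers that tie these lattices to the cell membrane. The 37 genes described here code for these scaffolds. Their probe sets were found by matching gene symbols to a list of names, which was drawn up with earlier results of these data known. They make up 37 of the 22206 probe sets measured. Each member had 1 probe set, none was saturated on any array, and the row of *Pdlim7* also names a microRNA.

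In the Z-disc, alpha-actinin crosslinks the thin filaments of neighbouring sarcomeres, and LIM, PDZ and filamin proteins dock onto it. In the M-band, myomesins crosslink the thick filaments around the end of titin, the giant protein that spans from Z-disc to M-band. Tropomodulins, leiomodins and capping proteins set the ends of the thin filaments, chaperones fold myosin and protect the lattice, and desmin, synemin, plectin, vinculin and talin carry force to neighbouring myofibrils and to the membrane. Several of these genes have paralogues or levels that differ between slow and fast muscle fibres.

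The data comprised 8 arrays of gastrocnemius (GAS) muscle from male C57/Bl6j mice aged 14 wk, examined 3 weeks after intramuscular AAV. The MYTHO group (n = 4) carried a short hairpin RNA, driven by the U6 promoter in a serotype 1 virus, against the transcript of *Mytho*, a gene also known as D230025D16Rik. The scrmb group (n = 4) carried a scrambled hairpin and came from the opposite leg of the same animals, which are called A to D here. All muscles had therefore received virus, no untreated muscle was analysed here, and the U6 promoter is not restricted to muscle fibres. Values are log2 signals, in which a difference of 1 is a 2-fold difference in probe brightness, and signals of different genes are not set against each other. Differences are MYTHO minus scrmb.

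The *Mytho* signal, which checks the labels, was 10.78 to 11.35 in scrmb and 8.08 to 8.80 in MYTHO muscle (log2 fold change -2.81, limma adjusted p = 0.00044). Array medians lay between 6.39 and 6.47. The mean of 10 skeletal muscle genes was 18.93 to 19.13 in scrmb and 18.95 to 19.08 in MYTHO muscle, although 2 of them were saturated on all arrays. Before the results, 2 arrays need naming. The mean signal of 8 slow-fibre genes (*Myh7*, *Myl2*, *Myl3*, *Tnnt1*, *Tnni1*, *Tnnc1*, *Tpm3* and *Atp2a2*) in animals A, B, C and D was 13.70, 11.91, 11.94 and 11.61 in the scrmb leg, and 14.88, 14.43, 14.81 and 11.68 in the MYTHO leg. The scrmb array of animal A thus lay above the other scrmb arrays, and the MYTHO array of animal D lay at the level of the scrmb arrays. In whole muscle, fewer cells of a type and less RNA per cell cannot be told apart.

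No member passed a limma adjusted p of 0.05, against 0.0270% of all probe sets, and the lowest value among the members was 0.168. At an unadjusted p under 0.05, 4 members were higher in MYTHO muscle, *Pdlim1*, *Myom3*, *Cryab* and *Actn2*, or 10.8% of the members beside 4.81% of all probe sets. The 2 lower members, *Smyd1* and *Tmod1*, were 5.41% of the members beside 7.58% of all probe sets. In both directions together the shares were 16.2% and 12.4%. With animal as a block, 5 members were higher and 1 lower, beside 4.94% and 7.66% of all probe sets. The split of 4 higher to 2 lower turned to 2 to 4 under quantile normalization and became 6 to 1 under median centring. Without single arrays the higher members numbered from 2 (without scrmb or MYTHO of animal B or C) to 8 (without MYTHO of animal D). How many of all probe sets were called in these alternatives was not counted. Such splits therefore leave unknown whether the members moved or all probe sets did. Over all probe sets the median log2 fold change was 0.02 under quantile normalization, with -0.04 for the members. Median centring gave 0.035 and 0.085. In the main fit, the median log2 fold change of the 37 members was 0.05, compared with -0.005 over all probe sets, with 19 members above 0 (51.4%, beside 49.0% of all probe sets) and 18 below. The log2 fold changes spanned -0.49 to 1.33, and 17 members lay within 0.2 of no difference.

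**Figure D1:**
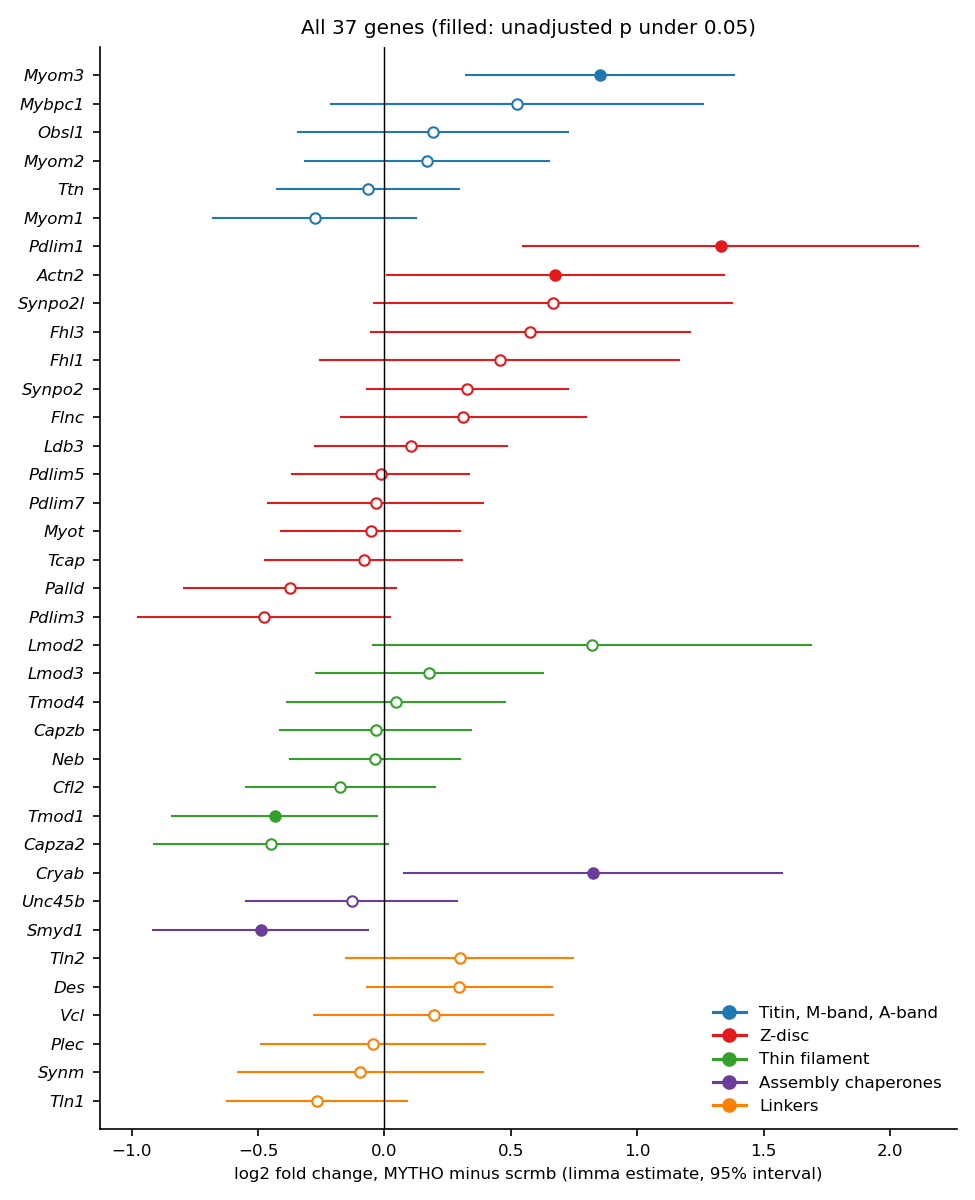
Log2 fold change (MYTHO minus scrmb, limma estimate) of the 37 members on the x axis, grouped by role, with bars for the 95% interval and filled points for an unadjusted p under 0.05. *Pdlim1*, at 1.33, and *Myom3*, at 0.85, have the intervals farthest above 0, and most other intervals span it.

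Promoters are shown for members with an unadjusted p under 0.05, none of which passed adjustment. The windows are the 250 bases upstream of a RefSeq transcription start on GRCm38.p6, each printed 5′ to 3′ on the strand of its gene. They lie at chr4:135759465-135759714 on the plus strand for *Myom3*, chr13:12340733-12340982 on the minus strand for *Actn2*, chr19:40271617-40271866 on the minus strand for *Pdlim1*, chr4:46038972-46039221 on the plus strand for *Tmod1* and chr6:71262282-71262531 on the minus strand for *Smyd1*. All these genes are protein coding, and the windows of *Myom3* and *Tmod1* lie inside the annotated span of their gene, downstream of its outermost start. Capitals mark matches, on either strand, to motifs bound by muscle transcription factors: the E-box (CANNTG), the MEF2 site, the CArG box and the MCAT element (CATTCC).
Myom3: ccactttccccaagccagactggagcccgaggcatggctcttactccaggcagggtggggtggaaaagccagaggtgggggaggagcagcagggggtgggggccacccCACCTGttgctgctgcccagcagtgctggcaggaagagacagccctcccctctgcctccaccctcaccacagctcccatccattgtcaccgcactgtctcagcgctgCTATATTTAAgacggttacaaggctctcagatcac
Actn2: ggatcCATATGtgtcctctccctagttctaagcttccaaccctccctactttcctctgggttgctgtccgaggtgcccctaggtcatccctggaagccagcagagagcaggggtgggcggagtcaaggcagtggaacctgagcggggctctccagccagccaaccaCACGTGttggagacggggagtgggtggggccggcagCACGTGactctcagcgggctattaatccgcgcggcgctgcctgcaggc
Pdlim1: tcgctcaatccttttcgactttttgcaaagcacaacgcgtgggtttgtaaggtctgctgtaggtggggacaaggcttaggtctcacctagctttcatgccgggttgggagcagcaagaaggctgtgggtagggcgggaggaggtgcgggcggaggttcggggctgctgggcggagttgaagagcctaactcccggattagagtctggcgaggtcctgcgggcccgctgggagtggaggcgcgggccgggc
Tmod1: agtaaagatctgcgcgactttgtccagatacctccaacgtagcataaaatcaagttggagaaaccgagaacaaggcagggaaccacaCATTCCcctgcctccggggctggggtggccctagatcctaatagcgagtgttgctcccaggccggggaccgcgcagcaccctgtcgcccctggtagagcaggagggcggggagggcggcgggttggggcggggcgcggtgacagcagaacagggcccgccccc
Smyd1: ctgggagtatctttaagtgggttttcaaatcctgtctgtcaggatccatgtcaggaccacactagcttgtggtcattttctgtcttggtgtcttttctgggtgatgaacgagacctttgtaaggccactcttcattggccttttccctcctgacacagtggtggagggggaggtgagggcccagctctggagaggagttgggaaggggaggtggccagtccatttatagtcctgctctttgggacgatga
The *Myom3* window holds 1 E-box and 1 MEF2 site, the *Actn2* window 3 E-boxes and the *Tmod1* window 1 MCAT element, and no match was found in the *Pdlim1* and *Smyd1* windows. *Cryab* is given by name only. Over the 36 windows of the 29 members with an entry, some of which overlap where a gene has several starts, an E-box was found in 66.7%, beside 66.2% of all 32851 promoter windows. A MEF2 site was found in 13.9% beside 2.92%, a CArG box in 13.9% beside 1.47%, and an MCAT element in 13.9% beside 12.6%. Both windows of *Synpo2l* count toward the MEF2 share and both of *Ldb3*, which overlap, toward the CArG share. No printed window holds a CArG box. These shares describe the list of members and not the difference between the groups. A match is a run of letters and does not show that a factor binds there.

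Among titin and the proteins of the M-band and A-band (6 members, median log2 fold change 0.18), 1 was higher at an unadjusted p under 0.05, none was lower and 5 did not pass. *Myom3*, the myomesin found in slow and intermediate fibres, had log2 signals (here and below in the order A, B, C, D) of 8.11, 7.41, 7.71 and 7.31 in scrmb and 8.63, 8.59, 8.81 and 7.92 in MYTHO muscle. The MYTHO leg was the higher in 4 of 4 animals, and the groups overlapped only because scrmb of animal A exceeded MYTHO of animal D. On average the scrmb signal was 7.64 ± 0.36 (SD, n = 4) and the MYTHO signal 8.49 ± 0.39 (SD, n = 4), a log2 fold change of 0.85 (SE 0.24, 1.81-fold, limma adjusted p = 0.197). An exact two-sided permutation test over the 70 splits of the arrays gave p = 0.0571, where the smallest possible value is 0.0286. These splits ignore that the legs are paired, and exchanging legs within animals gives 16 arrangements, of which the smallest possible two-sided p is 0.125.

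*Mybpc1*, the slow skeletal form of myosin-binding protein C, had signals of 17.65, 16.94, 17.03 and 16.48 in scrmb and 17.44, 18.25, 17.88 and 16.63 in MYTHO muscle. Animals B and C differed by 1.31 and 0.85, animal D by 0.15 and animal A by -0.21, and the mean log2 fold change of 0.53 did not pass (limma adjusted p = 0.570). Without the MYTHO array of animal D, the lowest of its group, its value was 0.83 and its unadjusted p under 0.05. Leaving out the array most against a difference widens that difference by construction, here and for the members below. The other myomesins did not pass. *Myom1*, the form present in all striated muscle, was 16.52, 16.92, 16.79 and 16.97 in scrmb and 16.44, 16.60, 16.29 and 16.77 in MYTHO muscle, lower in 4 of 4 animals by 0.08 to 0.50 (log2 fold change -0.28, limma adjusted p = 0.587). *Myom2*, the form of fast fibres, was 14.60, 15.32, 15.45 and 15.60 in scrmb and 15.49, 15.31, 15.44 and 15.40 in MYTHO muscle, higher in animal A alone (log2 fold change 0.17). *Ttn* had a log2 fold change of -0.07 (95% interval -0.42 to 0.29), and *Obsl1*, a relative of the titin-binding protein obscurin, was at 5.24 to 6.31 in MYTHO and 5.18 to 5.54 in scrmb muscle.

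**Figure D2:**
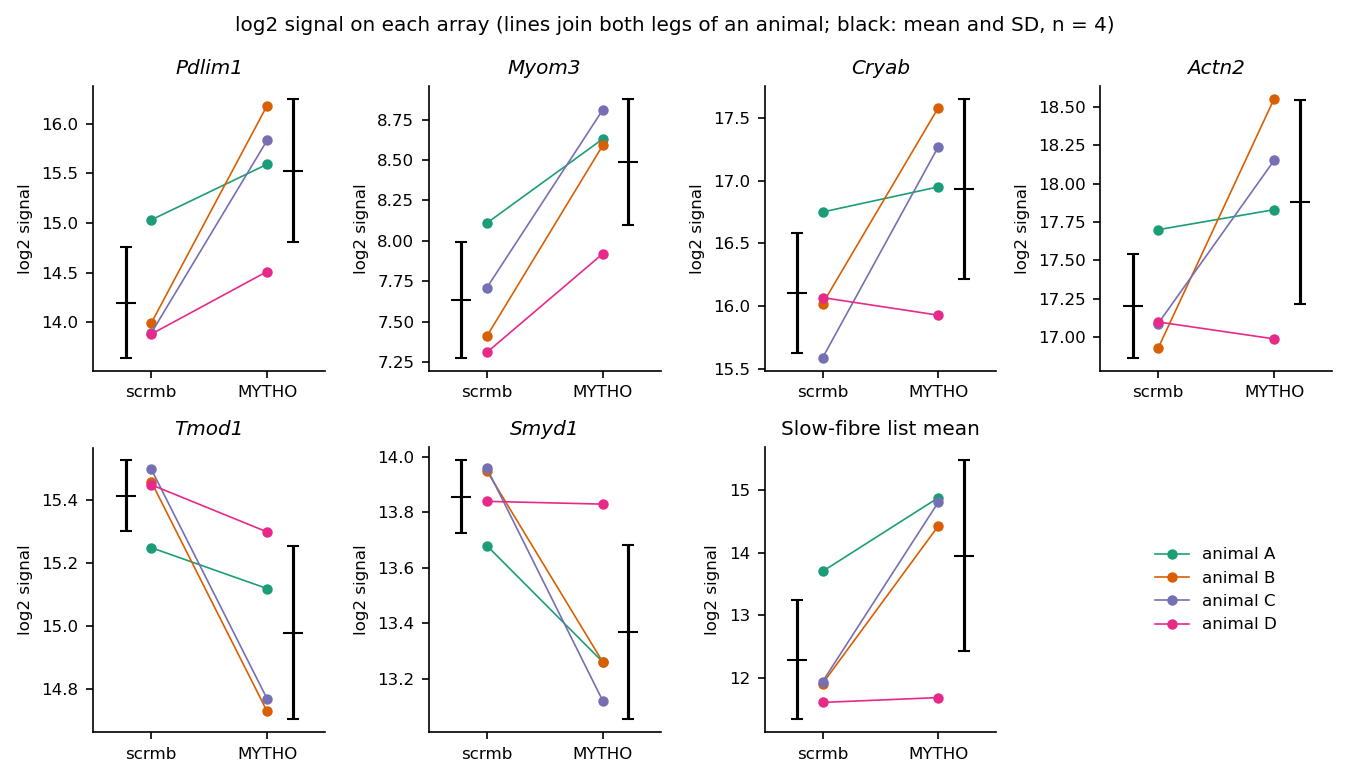
Log2 signal (y axis) in scrmb and MYTHO muscle for the 6 members with an unadjusted p under 0.05 and for the mean of the 8 slow-fibre genes; coloured lines join both legs of an animal, and black bars show the mean and SD (n = 4). Animals B and C carry the widest differences in *Pdlim1*, *Cryab*, *Actn2* and *Tmod1*, and both legs of animal D are close in *Cryab*, *Actn2* and *Smyd1*.

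Of the 14 Z-disc members (median log2 fold change 0.21), 2 were higher at an unadjusted p under 0.05, none was lower and 12 did not pass. *Pdlim1*, a PDZ and LIM protein that binds alpha-actinin, had signals of 15.03, 13.99, 13.89 and 13.88 in scrmb and 15.59, 16.18, 15.83 and 14.51 in MYTHO muscle. All scrmb arrays except that of animal A were below every MYTHO array. The MYTHO leg was higher in 4 of 4 animals, by 0.56, 2.19, 1.94 and 0.63 in A, B, C and D. On average the scrmb signal was 14.20 ± 0.56 (SD, n = 4) and the MYTHO signal 15.53 ± 0.72 (SD, n = 4), which is 2.51-fold (95% interval 1.46 to 4.32). On the log2 scale the difference was 1.33 (SE 0.36, limma adjusted p = 0.168), and the exact permutation p was 0.0571.

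*Actn2*, the alpha-actinin of all fibre types and the crosslinker of the Z-disc itself, had signals of 17.70, 16.93, 17.09 and 17.10 in scrmb and 17.83, 18.55, 18.15 and 16.99 in MYTHO muscle. The MYTHO array of animal D lay among the scrmb arrays, and the scrmb array of animal A lay near the MYTHO arrays. The mean difference was a log2 fold change of 0.68 (SE 0.31, 1.60-fold, limma adjusted p = 0.394, exact permutation p = 0.114), with higher values in 3 of 4 animals. Only the scrmb array of animal A or the MYTHO array of animal D could be left out with an unadjusted p still under 0.05, and without any other single array the value was 0.45 to 0.69. The call was also lost after quantile normalization (0.64), in the upper 75% of probe sets (0.68), with eBayes trend and robust (0.68) and with array weights (0.65). *Synpo2l*, a relative of the actin-binding protein myopodin, was 13.14, 13.02, 12.05 and 13.65 in scrmb and 13.96, 14.03, 13.47 and 13.07 in MYTHO muscle (log2 fold change 0.67, limma adjusted p = 0.434). Animals A to C were higher by 0.82 to 1.42 and animal D was lower by 0.58, the widest negative difference in any animal among the members with a positive mean. Without the scrmb or the MYTHO array of animal D the log2 fold change was 0.90 or 0.86 and the unadjusted p under 0.05.

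Both LIM-only members had positive values that did not pass the test. *Fhl1* was 19.53, 18.77, 18.57 and 18.32 in scrmb and 19.33, 19.83, 19.47 and 18.38 in MYTHO muscle, with a log2 fold change of 0.46 (limma adjusted p = 0.619). Its MYTHO signal of 19.83 in animal B lay near the ceiling of the arrays, 19.93, which limits what can be measured. *Fhl3* was 12.65, 12.52, 12.52 and 13.58 in scrmb and 12.94, 13.98, 13.54 and 13.12 in MYTHO muscle, with a log2 fold change of 0.58 (limma adjusted p = 0.449). For *Fhl1* the scrmb array of animal A was high, and for *Fhl3* the scrmb array of animal D was. An unadjusted p under 0.05 was reached by *Fhl1* without scrmb of animal A (0.70) or MYTHO of animal D (0.75), and by *Fhl3* without scrmb of animal D (0.83) or MYTHO of animal A (0.73). In each case the array left out was the one of its group most against the difference, which widens it by construction.

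None of the other PDZ and LIM members passed. *Pdlim3*, or ALP, was 17.25, 17.98, 17.70 and 17.37 in scrmb and 17.57, 16.89, 16.80 and 17.14 in MYTHO muscle, lower in animals B, C and D and higher in animal A (log2 fold change -0.48, limma adjusted p = 0.428). *Pdlim5*, *Pdlim7* and *Ldb3* had log2 fold changes of -0.02, -0.04 and 0.11. *Palld*, the actin-bundling protein palladin, was 12.87, 13.01, 12.80 and 13.23 in scrmb and 12.97, 12.34, 12.61 and 12.49 in MYTHO muscle (log2 fold change -0.38, limma adjusted p = 0.460). Without MYTHO of animal A, *Pdlim3* and *Palld* had values of -0.63 and -0.50, and without scrmb of animal A *Pdlim3* had -0.58, each with an unadjusted p under 0.05. Of the remaining Z-disc members, the actin crosslinker *Flnc* and the myopodin gene *Synpo2* had values of 0.31 and 0.33, and the titin cap *Tcap* and myotilin (*Myot*) values of -0.08 and -0.06, none of which passed.

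Of the 8 thin-filament members (median log2 fold change -0.04), 1 was lower at an unadjusted p under 0.05, none was higher and 7 did not pass. *Tmod1*, which caps the pointed ends of thin filaments, had signals of 15.25, 15.46, 15.50 and 15.45 in scrmb and 15.12, 14.73, 14.77 and 15.30 in MYTHO muscle. It was lower in 4 of 4 animals, and the scrmb array of animal A, at 15.25, lay below the MYTHO array of animal D, at 15.30. The mean difference was a log2 fold change of -0.44 (SE 0.19, limma adjusted p = 0.369, exact permutation p = 0.0571). With animal as a block it no longer had an unadjusted p under 0.05, and the limma adjusted p was 0.412. The same happened after median centring (-0.40) and without scrmb of animal B, C or D or MYTHO of animal B or C, where the value was -0.42 to -0.35.

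*Lmod2*, a leiomodin that lengthens thin filaments at the same ends, had signals of 12.58, 12.50, 12.15 and 11.68 in scrmb and 13.40, 13.80, 13.33 and 11.66 in MYTHO muscle. Animals A, B and C were higher by 0.82, 1.30 and 1.18, while both legs of animal D were alike and lowest in their group. The log2 fold change of 0.82 (SE 0.40) had a limma adjusted p of 0.432. With animal as a block its unadjusted p was under 0.05 and its limma adjusted p was 0.235, and without MYTHO of animal D its value was 1.28 (limma adjusted p = 0.101). *Capza2*, a subunit of the capping protein that anchors thin filaments in the Z-disc, was 16.92, 17.09, 17.26 and 17.02 in scrmb and 16.97, 16.17, 16.43 and 16.92 in MYTHO muscle, a difference widest in animals B and C (log2 fold change -0.45, limma adjusted p = 0.417). Without MYTHO of animal A or D it was -0.57 or -0.55, with an unadjusted p under 0.05. Its partner *Capzb* had a value of -0.04, *Lmod3* 0.18, *Tmod4* 0.05 and the muscle cofilin *Cfl2* -0.18. *Neb*, the giant ruler of the thin filament, was at 19.42 to 19.55 on all arrays, near the ceiling of 19.93, with a log2 fold change of -0.04 (95% interval -0.37 to 0.30).

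The 3 assembly and chaperone members did not share a direction, with 1 higher and 1 lower at an unadjusted p under 0.05 and a median log2 fold change of -0.13. *Cryab*, the small heat shock protein that protects desmin and the Z-disc, had signals of 16.75, 16.02, 15.59 and 16.07 in scrmb and 16.95, 17.58, 17.27 and 15.93 in MYTHO muscle. The MYTHO array of animal D was again within the scrmb range, and animals B and C were higher by 1.56 and 1.68. The log2 fold change was 0.83 (SE 0.34, 1.77-fold, limma adjusted p = 0.357, exact permutation p = 0.114), with higher values in 3 of 4 animals. As for *Actn2*, the unadjusted p was no longer under 0.05 without any single array other than scrmb of animal A or MYTHO of animal D, with values of 0.61 to 0.82, and it was also lost after quantile normalization (0.69) and with trend and robust (0.83).

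*Smyd1*, a muscle methyltransferase needed for thick-filament assembly, had signals of 13.68, 13.95, 13.96 and 13.84 in scrmb and 13.26, 13.26, 13.12 and 13.83 in MYTHO muscle. The values were lower in 4 of 4 animals, though by only 0.01 in animal D, whose MYTHO array was the sole one within the scrmb range. The log2 fold change was -0.49 (SE 0.20, limma adjusted p = 0.335, exact permutation p = 0.0571). Without scrmb of animal B or C, or MYTHO of animal A, B or C, it was -0.46 to -0.41 and the unadjusted p was not under 0.05, as was the case without both arrays of animal A (-0.51). *Unc45b*, the myosin chaperone, had a log2 fold change of -0.13 (95% interval -0.55 to 0.29).

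None of the 6 linker members passed an unadjusted p of 0.05 (median log2 fold change 0.08). *Tln1*, the talin that joins integrins to actin in most cells, had signals of 12.92, 12.82, 12.77 and 12.78 in scrmb and 12.71, 12.63, 12.37 and 12.51 in MYTHO muscle. It was the single member whose groups did not overlap, 2.70% of the members beside 3.87% of all probe sets that were lower in this way, and no member was higher without overlap, beside 2.59% of all probe sets. The log2 fold change was small, -0.27 (SE 0.16), with a limma adjusted p of 0.547 and an exact permutation p of 0.0286, the smallest possible.

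*Tln2*, the main talin of muscle fibres, was 9.79, 9.52, 9.32 and 10.16 in scrmb and 10.08, 10.02, 9.79 and 10.09 in MYTHO muscle, higher in animals A to C and lower by 0.07 in animal D (log2 fold change 0.30, limma adjusted p = 0.607; without scrmb of animal D 0.45, with an unadjusted p under 0.05). *Des*, the intermediate filament around the Z-discs, was 17.24, 17.50, 17.27 and 17.61 in scrmb and 17.59, 17.75, 17.75 and 17.71 in MYTHO muscle. Its MYTHO arrays exceeded all but 1 scrmb array, with higher values in 4 of 4 animals by 0.10 to 0.48 and a log2 fold change of 0.30 (limma adjusted p = 0.512). With eBayes trend and robust, though in no other alternative, its unadjusted p was under 0.05. *Vcl*, *Synm* and *Plec* had log2 fold changes of 0.20, -0.10 and -0.05, with animals on both sides of 0. In all, 3 members were higher in 4 of 4 animals (*Pdlim1*, *Myom3* and *Des*) and 4 were lower (*Smyd1*, *Tmod1*, *Myom1* and *Tln1*), which are 8.11% and 10.8% of the members beside 8.94% and 10.8% of all probe sets. Both directions together make 18.9% of the members and 19.7% of all probe sets.

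**Figure D3:**
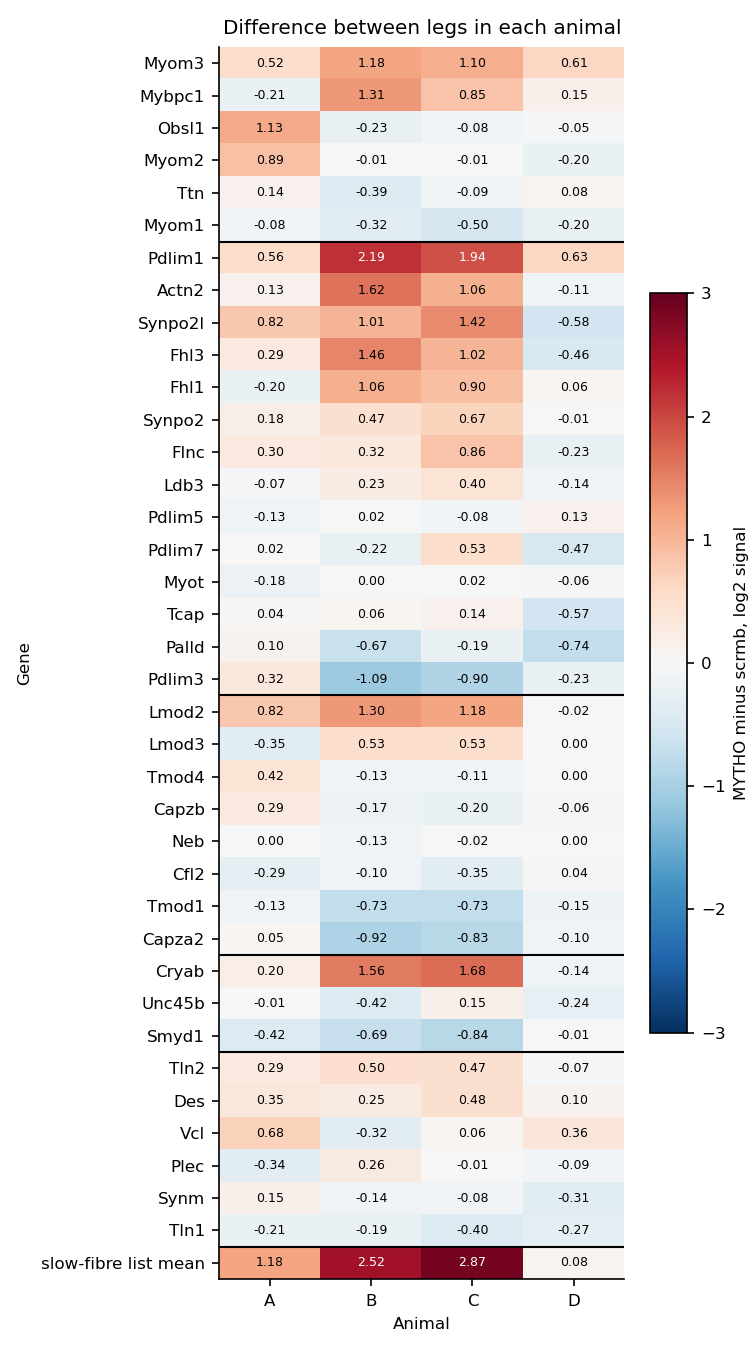
Difference in log2 signal between the MYTHO and the scrmb leg (colour and printed value) of each animal, in columns, for the 37 members by role and for the mean of the 8 slow-fibre genes. The largest positive values among the members are those of *Pdlim1* in animals B and C, at 2.19 and 1.94, the animals in which the slow-fibre mean differs by 2.52 and 2.87, against 0.08 in animal D.

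The direction of the differences varied between animals. In animals A, B and C, 23, 18 and 20 of the 37 members were higher in the MYTHO leg, beside 48.3%, 50.5% and 47.0% of all probe sets, with medians of 0.13, 0.00 and 0.06. In animal D, 9 were higher, beside 48.3% of all probe sets, and 25 lower, with a median of -0.07, while the median over all probe sets was between -0.03 and 0.01 in every animal.

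A shared order of the arrays ran through part of the list. The scrmb array of animal A was the highest of its group and the MYTHO array of animal D the lowest of its group in 8 members (*Myom3*, *Mybpc1*, *Actn2*, *Pdlim1*, *Fhl1*, *Lmod2*, *Lmod3* and *Cryab*), and in all 8 slow-fibre genes, beside 7.13% of all probe sets. The mirror order, scrmb of animal A lowest and MYTHO of animal D highest, held in 9 members (*Ttn*, *Myom1*, *Pdlim5*, *Tmod1*, *Tmod4*, *Capzb*, *Unc45b*, *Smyd1* and *Vcl*), in no slow-fibre gene and in 6.90% of all probe sets. One of these orders held in the 6 members with an unadjusted p under 0.05, beside 347 of the 2751 probe sets (12.6%) with such a p and 14.0% of all probe sets. Over the slow-fibre genes themselves the median difference was 1.59 on the log2 scale, and 7 of 8 were higher at an unadjusted p under 0.05, none after adjustment. With animal as a block all 8 were higher at an unadjusted p under 0.05, beside 4.94% of all probe sets. The lowest limma adjusted p was then 0.158. The part of the slow-fibre genes in the differences of the members was not tested.

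**Figure D4:**
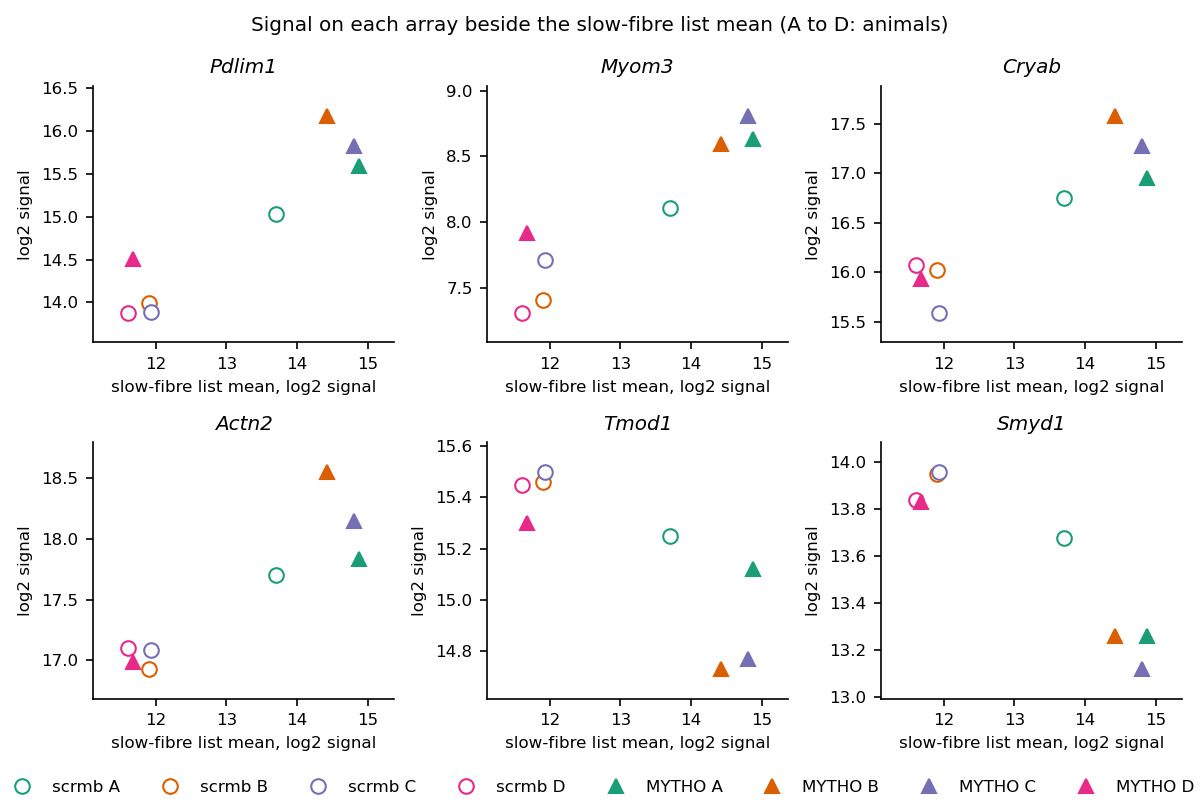
Log2 signal of the 6 members with an unadjusted p under 0.05 (y axis) against the mean log2 signal of 8 slow-fibre genes (x axis), with open circles for scrmb and filled triangles for MYTHO arrays and a colour for each animal. The MYTHO array of animal D, at 11.68 on the x axis, sits with the scrmb arrays of animals B to D, and the scrmb array of animal A, at 13.70, lies between these and the other MYTHO arrays.

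Without these 2 arrays, 8 members were higher and 3 lower at an unadjusted p under 0.05, beside 4.68% and 6.54% of all probe sets. Dropping the scrmb array with the highest and the MYTHO array with the lowest slow-fibre signal widens by construction any difference that follows those genes. *Pdlim1* was then the only member past adjustment (log2 fold change 1.95, limma adjusted p = 0.0136), beside 0.0540% of all probe sets that were higher and 0.00450% that were lower. *Myom3*, *Cryab*, *Actn2*, *Lmod2*, *Mybpc1* and *Fhl1* had values of 1.20, 1.37, 1.14, 1.40, 1.04 and 0.99, with limma adjusted p from 0.128 to 0.219, and *Synpo2l* was at 0.91 (limma adjusted p = 0.397). The lower members were *Smyd1*, *Tmod1* and *Capza2*, at -0.70, -0.60 and -0.60, with limma adjusted p from 0.256 to 0.403. In animal D, *Pdlim1* and *Myom3* were higher in the MYTHO leg by 0.63 and 0.61, and *Cryab*, *Actn2*, *Lmod2*, *Tmod1* and *Smyd1* differed by -0.14, -0.11, -0.02, -0.15 and -0.01. The 8 slow-fibre genes in the same animal ran from 0.54 for *Tpm3*, 0.44 for *Tnni1* and 0.27 for *Atp2a2* to -0.40 for *Myl3* and -0.41 for *Myl2*.

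Among 10 fast-fibre genes, 4 of them saturated on all arrays, 2 had log2 fold changes above 0, 3 below and 5 at 0. Their mean signal was 19.35 to 19.45 in scrmb and 19.47 to 19.50 in MYTHO muscle, but without *Myh1* the remaining 9 were at 19.71 to 19.77 and 19.69 to 19.77, so that the gap between the groups rested on that gene. *Myh1*, the myosin of fast 2X fibres and the only fast-fibre gene with an unadjusted p under 0.05, differed by 0.05, 1.21, 1.39 and 0.14 in animals A to D (log2 fold change 0.70, limma adjusted p = 0.295). Of 8 regeneration genes, 1 saturated, 6 had log2 fold changes above 0 and 1 below, and only *Myog*, a regulator of muscle differentiation, had an unadjusted p under 0.05. *Pax7*, *Myf5* and *Myod1*, which mark muscle stem cells and myoblasts, were at 0.00, -0.12 and 0.16. *Myog* differed by 1.08, 1.07, 0.32 and 0.12 (log2 fold change 0.65, limma adjusted p = 0.307) in the same order of animals. The part of these genes in the differences of the members was not tested.

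Markers of other cells were read on the same arrays. The mean of 6 endothelial genes was 9.59 to 9.86 in scrmb and 10.02 to 10.17 in MYTHO muscle, without overlap, and all 6 had positive log2 fold changes, of which 1 had an unadjusted p under 0.05. Smooth muscle and pericyte genes, which share actin-linker proteins with the members, were at 8.95 to 9.30 and 9.13 to 9.54, with 1 of 10 higher at an unadjusted p under 0.05. Fibroblast genes were at 10.88 to 10.97 and 10.47 to 11.32, with 1 of 7 lower by the same measure, and tendon, macrophage and heart genes overlapped between the groups. The Schwann cell genes were at 7.39 to 9.19 in scrmb and 7.30 to 7.89 in MYTHO muscle. All 6 had negative log2 fold changes (median -0.48), none with an unadjusted p under 0.05, and their mean differed by -0.24, -0.26, -1.29 and -0.05 in animals A to D. The part of these cells in the values of members that are not restricted to muscle fibres, such as *Pdlim1* and *Tln1*, was not tested.

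A further 70 genes of the same structures were read alongside. Their median log2 fold change was 0.17, with 48 of 70 (68.6%) above 0, beside 49.0% of all probe sets, 20 below and 2 at 0. At an unadjusted p under 0.05, 5 of 70 (7.14%) were higher and none lower, beside 4.81% and 7.58% of all probe sets, and none passed adjustment (lowest limma adjusted p 0.238). With animal as a block, 7 were higher and none lower, beside 4.94% and 7.66% of all probe sets. *Hspb7*, a small heat shock protein that binds filamin C, had signals of 16.63, 15.71, 14.89 and 14.23 in scrmb and 17.94, 18.02, 17.84 and 15.19 in MYTHO muscle, higher in 4 of 4 animals (log2 fold change 1.88, SE 0.63, limma adjusted p = 0.259). Its unadjusted p was not under 0.05 with eBayes trend and robust, 1 of the 19 alternatives. *Myoz2*, the calsarcin of slow fibres, was 16.66, 15.63, 15.64 and 14.66 in scrmb and 17.36, 17.71, 17.11 and 15.29 in MYTHO muscle, also higher in 4 of 4 animals (log2 fold change 1.22, limma adjusted p = 0.356). Without any single array other than scrmb of animal A or MYTHO of animal D, *Myoz2* was at 0.89 to 1.22 and its unadjusted p was not under 0.05, nor was it with trend and robust. With animal as a block, the limma unadjusted p was 0.00125 for *Myoz2* and 0.000215 for *Hspb7*, with an adjusted p of 0.158 each. In both genes scrmb of animal A was the highest of its group and MYTHO of animal D the lowest of its group, as in the 8 members above.

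*Bag3*, the cochaperone that sorts damaged filamin for autophagy, was 13.13, 11.80, 10.34 and 11.26 in scrmb and 12.34, 13.57, 13.21 and 12.00 in MYTHO muscle, higher in 3 of 4 animals (log2 fold change 1.15, limma adjusted p = 0.390). *Lims2*, an adaptor of integrin-linked kinase, was 8.60, 8.03, 8.25 and 8.36 in scrmb and 8.74, 9.47, 8.97 and 8.73 in MYTHO muscle (log2 fold change 0.67, limma adjusted p = 0.238), and *Cfl1*, the cofilin of most cells, was at 11.71 to 12.03 and 12.08 to 12.64 (log2 fold change 0.42, limma adjusted p = 0.374). In these last 2 genes the groups did not overlap, with an exact permutation p of 0.0286 each, beside 2.59% of all probe sets that were higher without overlap. The unadjusted p was not under 0.05 for *Bag3* without scrmb of animal B, C or D or MYTHO of animal B or C (0.72 to 1.20), without both arrays of animal D (1.28), in the upper 75% of probe sets or with trend and robust (both 1.15). It was not under 0.05 for *Cfl1* without scrmb of animal B, C or D or MYTHO of animal A or D (0.31 to 0.45), without both arrays of animal A (0.36) or D (0.38), or without scrmb of animal A and MYTHO of animal D together (0.49). The ankyrin repeat gene *Ankrd2*, at 11.62 to 14.36 in scrmb and 11.81 to 14.61 in MYTHO muscle, and the actin-binding LIM gene *Ablim1*, at 9.22 to 10.87 and 8.93 to 11.95, had log2 fold changes of 0.74 and 0.71 that did not pass (limma adjusted p = 0.682 and 0.653).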

How the data were processed

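Total RNA was hybridised by the authors to Clariom S Mouse arrays, and the authors deposited gene-level log2 signals computed with the Transcriptome Analysis Console version 4.0.1 (SST-RMA, default settings, annotation release 36, mm10). The log2 signals are rounded to 2 decimals and reach a ceiling of 19.93, at which 18 probe sets lay on all 8 arrays. The authors also deposited group averages, fold changes, p-values and false discovery rates, which were not used. The 22206 rows include 836 that name several genes and 3 without a symbol.

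The unpaired difference, MYTHO minus scrmb, was fitted on all probe sets with limma version 3.58.1 (lmFit and eBayes, defaults) in R version 4.3.3, two-sided, with Benjamini-Hochberg adjustment over all probe sets. Exact permutation tests used the 70 splits of the arrays, without regard to the pairing of legs. The precision of each value is limited by 4 arrays per group. Where a gene of the other lists had more than 1 row, the row with the highest mean log2 signal stood for it. Values on every array were given for members with an unadjusted p under 0.05 or no overlap between groups, for at least the 2 members of each role with the largest absolute log2 fold change, and for further members chosen after their values were seen. Of the 70 other genes, those with an unadjusted p under 0.05 and the 5 with the largest absolute log2 fold change were named. The members, lists, tests and alternatives were chosen with earlier results of these data known.

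Each column name holds the number of an animal, found once per group, and the study injected opposite legs, so equal numbers mark both legs of 1 animal. Deviations from the group means correlated at 0.003, -0.001, 0.135 and 0.087 in animals A to D. No column could be tied to a replicate number of the labels. Alternatives were quantile normalization, median centring, the upper 75% of probe sets, eBayes with trend and robust, array weights, no saturated probe sets, animal as a fixed or random block, and leaving out arrays. Promoters are those of RefSeq on GRCm38.p6, the assembly of mm10. Sequences of the hairpins and probes were not used here.

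Further marker lists had mean log2 signals, in scrmb and MYTHO muscle, of 5.75 to 6.01 and 5.77 to 6.03 for heart, 6.75 to 7.01 and 6.81 to 7.06 for macrophage, 7.08 to 7.36 and 7.26 to 7.90 for regeneration, 8.07 to 9.78 and 8.39 to 9.36 for tendon, 11.70 to 13.70 and 12.44 to 14.76 for blood and 5.19 to 9.17 and 5.54 to 10.78 for adipocyte genes.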

Additional observations from a re-analysis of the deposited data

Results flagged for a closer look

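Of 124 groups of 4 arrays, covering the members, the 5 other sarcomere and linker genes with an unadjusted p under 0.05, the targeted gene and the list means, 11 held 1 array whose gap to the nearest of the others, as a share of the range of the group, was above Dixon's critical value for 4 samples. Chance gives about 1 group in 20. In scrmb muscle, animal A stood apart for *Pdlim1* at 15.03 against 13.88 to 13.99 (gap share 0.904) and for the slow-fibre mean at 13.70 against 11.61 to 11.94 (0.842). Animal D stood apart for *Fhl3* at 13.58 against 12.52 to 12.65 (0.877) and for *Myot* at 18.66 against 18.82 to 18.83 (0.941). Animal C was low for *Synpo2*, at 15.27 against 15.67 to 15.75 (0.833), and animal B was high for *Neb*, at 19.55 against 19.45 to 19.46 (0.9).

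In MYTHO muscle, animal D was low for the slow-fibre mean, at 11.68 against 14.43 to 14.88 (0.859), and for *Hspb7*, at 15.19 against 17.84 to 18.02 (0.936). Animal A was high for *Obsl1*, at 6.31 against 5.24 to 5.31 (0.935), and low for *Unc45b*, at 10.36 against 10.57 to 10.60 (0.875). Animal C was high for *Mytho* itself, at 8.80 against 8.08 to 8.20 (0.833).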

How the results depend on the processing

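Of the 19 alternatives, all chosen with earlier results of these data known, those leaving out both arrays of animal A or of animal D were added after the data files were examined. Across the 19, *Pdlim1* and *Myom3* kept an unadjusted p under 0.05 in all, *Smyd1* in 13, *Tmod1* in 12, *Cryab* in 11 and *Actn2* in 9. The limma adjusted p of *Pdlim1* ran from 0.0136 to 0.392. *Mytho* kept its call in all, with a log2 fold change from -2.98 to -2.74 without single arrays.

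The 4 members higher became 2 after quantile normalization, 6 with trend and robust (*Myom3*, *Pdlim1*, *Synpo2l*, *Fhl3*, and, under this alternative alone, *Synpo2* at 0.33 and *Des* at 0.30) and 8 without scrmb A and MYTHO D or without animal D. Without single arrays they ran from 2 (without scrmb B, scrmb C, MYTHO B or MYTHO C) to 8 (without MYTHO D). The 2 lower became 4 after quantile normalization, 1 after median centring, 5 with trend and robust (*Pdlim3*, *Palld*, *Capza2*, *Tmod1* and *Smyd1*), 1 with the replicate block by animal and 4 without animal A. Without single arrays they ran from 0 (without scrmb B, scrmb C, MYTHO B or MYTHO C) to 4 (without MYTHO A), with 1 without scrmb D. The split of higher to lower was thus 4 to 2, 2 to 4 after quantile normalization and 6 to 1 after median centring. Shares of all probe sets, given above for the block and without scrmb A and MYTHO D, were not taken for the other alternatives. Counts under those alternatives thus cannot show whether the members shifted apart from all probe sets. The count after adjustment went from 0 to 1 without scrmb A and MYTHO D. The median of the members was -0.04 after quantile normalization, with 0.02 over all probe sets, and -0.03 to 0.12 without single arrays. The replicate block by animal changed the unadjusted call of *Tmod1* (lost) and *Lmod2* (gained) and of no other member.

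Of the 70 other genes, the 5 higher became 2 and the 0 lower 1 with trend and robust, 13 and 2 without scrmb A and MYTHO D, and 12 higher without animal D. Without animal A, 1 was lower. Without single arrays they ran from 2 (without scrmb C) to 12 (without MYTHO D) higher, with 3 without MYTHO B, and from 0 to 2 lower (2 without scrmb A, 1 without MYTHO D). The cause was not tested.

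Signs reversed only for members never called. Without animal A these were *Obsl1* (-0.12), *Myom2* (-0.0733), *Pdlim5* (0.0233), *Tmod4* (-0.08) and *Plec* (0.0533). Without scrmb A and MYTHO D they were *Myom2* (-0.0433), *Tcap* (0.0167), *Myot* (0.00333), *Pdlim7* (0.00333), *Tmod4* (-0.183) and *Vcl* (-0.01), and without animal D *Tcap* (0.08) and *Pdlim7* (0.11). After median centring they were *Pdlim5* (0.025), *Pdlim7* (0.005), *Neb* (0.0025) and *Capzb* (0.005), and after quantile normalization *Tmod4* (-0.0408). Without single arrays, values ran from -0.0642 to 0.293 for *Obsl1*, -0.0467 to 0.287 for *Myom2*, -0.157 to 0.0075 for *Tcap*, -0.0625 to 0.0408 for *Pdlim5*, -0.171 to 0.0792 for *Pdlim7*, -0.1 to 0.143 for *Tmod4*, -0.121 to 0.0192 for *Capzb*, -0.222 to 0.0583 for *Synm* and -0.164 to 0.0892 for *Plec*. Averaging probe sets was not run, as each member has 1. Signals near the ceiling, as for *Neb* and the highest arrays of *Fhl1*, limit what can be measured.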
